A study of Homo sapiens with 13 samples.

Results

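In MDA-MB-231 cells, an established line from a human breast carcinoma, 4 regulators were mapped by chromatin immunoprecipitation and sequencing (ChIP-seq), and the regions that held YAP and not TAZ are described here. All peaks of the YAP, TAZ, TEAD4 and JUN lists that overlapped by at least 1 bp were merged, and a region was taken when it held at least 1 YAP peak and no TAZ peak. This gave 579 regions out of 28100, holding 580 of the 7709 YAP peaks. They made up 7.59% of the 7627 regions with YAP, a share that the rule itself sets. The other 7048 regions with YAP held TAZ as well and serve as the comparison. The cells were grown in serum-containing medium, the labels name no treatment, and all libraries came from this 1 line. Of the 13 libraries, 2 were made with an antibody to YAP, 2 with an antibody to TAZ, 2 with an antibody to TEAD4, 2 with an antibody to JUN, 2 with rabbit IgG and 3 with mouse IgG.

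YAP and TAZ, the product of WWTR1, are paralogous transcriptional coactivators restrained by the Hippo kinase cascade. When Hippo signalling is low they enter the nucleus, where they are brought to DNA mainly by factors of the TEAD family. JUN belongs to AP-1, a family of leucine-zipper dimers that bind their own DNA element, often at enhancers that TEAD factors also occupy. YAP and TAZ overlap in function but are separate proteins recognised here by separate antibodies.

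Each factor has 1 list, drawn up by the authors from both replicates at an irreproducible discovery rate (IDR) of 0.01, with no value per replicate. Regions of 1 set of lists are not replicates, so no test was made. The intervals given are exact binomial (Clopper-Pearson) 95% intervals, or for medians the matching order-statistic intervals, and cover counting error only. For a count of 0 the upper limit given is 3 counts of the total, which is lower than the upper end of an exact 95% interval. Fold enrichment over IgG and −log10 p are the authors' values per peak. Read depth is unknown here, and a region without TAZ is one without a listed TAZ peak. The background for YAP and TAZ peaks was the same rabbit IgG, and for TEAD4 and JUN it was mouse IgG. Names of the TAZ peaks bear a tag with both proteins, YAPTAZ, whose meaning is not stated, so it is unknown whether any YAP reads entered that list. Positions follow build hg19; neither genes nor sequence of that build were used here.

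Most YAP peaks in these regions were among the weaker ones of their list. Their median fold enrichment was 5.86 (quartiles 5.25 and 6.60, range 2.54 to 11.8), against 7.53 (quartiles 6.20 and 9.84) for the 7129 YAP peaks in regions that also held TAZ. The median −log10 p was 27.5 without TAZ and 44.4 with TAZ, and the weakest listed YAP peak had 24.3. By p, 13 of the 580 peaks (2.24%) stood in the stronger 50% of the YAP list, and by enrichment 50 (8.62%). With the YAP list cut into 10 equal parts (deciles) by p, peaks without TAZ made up 30.5% of the weakest decile, 20.4% of the next and 13.0% of the third, and 1 of 771 peaks (0.130%) in the strongest. The peaks were also narrower, with a median width of 423.5 bp without TAZ and 565 bp with TAZ. In the weakest decile by p these widths were 409 bp without TAZ and 465.5 bp with TAZ. The regions were chosen by the presence of a listed YAP peak and the absence of a listed TAZ peak, so these values describe the selection.

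**Figure D1:**
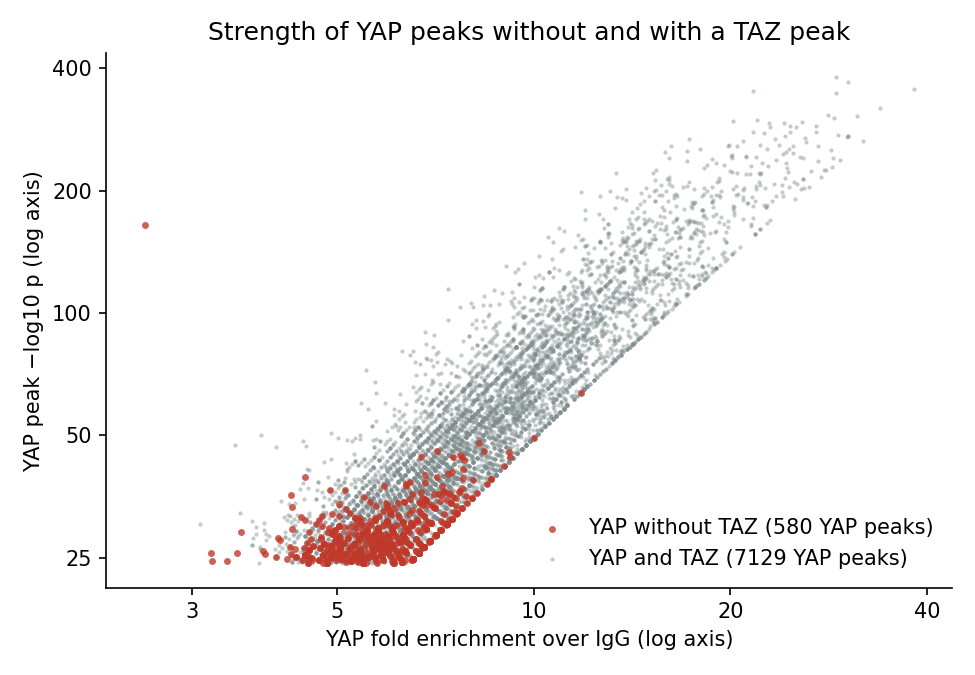
Fold enrichment over IgG (x, log axis) and −log10 p (y, log axis) of each YAP peak, in red for the 580 peaks in regions without TAZ and in grey for the 7129 in regions with TAZ. Most red points lie at the weak end, with medians of 5.86-fold and a −log10 p of 27.5, while 50 are in the stronger 50% of the list by enrichment and 13 by p, and 1 peak combines 2.54-fold enrichment with a −log10 p of 165.

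The limit of 1 bp fell in an empty range. Every YAP peak that overlapped a TAZ peak did so by at least 246 bp, the narrowest YAP peak being 248 bp wide, and the median overlap was 97.0% of the YAP peak. The smallest such overlaps, 246 bp, were at chr20:42410918-42411168 (YAP 7.18-fold, TAZ 6.49-fold) and at chr6:30663123-30663411 (YAP 8.05-fold, TAZ 6.54-fold), and the next, 248 bp, was at chr4:41179162-41179493 (YAP 5.59-fold, TAZ 4.45-fold). On the other side of the limit, the region nearest to TAZ lay on chromosome 8 (110346013 to 110346648), 78 bp from a TAZ peak, with a YAP enrichment of 4.91. The next were chr3:30552010-30552685, at 275 bp with TEAD4 and JUN, and chr18:26743934-26744715, at 340 bp with JUN and no TEAD4. A further 7 YAP peaks overlapped no TAZ peak but were joined to one, 97 to 693 bp away, through peaks of other lists, and the rule counts those regions as holding TAZ.

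TEAD4 and JUN, whose lists the rule used only in merging peaks, both had lower shares where TAZ was absent. TEAD4, a DNA-binding partner of YAP, was present at 219 of the 579 regions, or 37.8% (33.9 to 41.9), against 77.9% (77.0 to 78.9) of the regions with YAP and TAZ and 74.9% of all regions with YAP. JUN, the AP-1 subunit, was present at 327, or 56.5% (52.3 to 60.6), against 78.5% (77.5 to 79.4) with TAZ and 76.8% of all regions with YAP. Neither interval overlapped that of the regions with TAZ. TEAD4 was found at 36.7% (31.5 to 42.2) of the 327 regions with JUN and at 39.3% (33.2 to 45.6) of the 252 without JUN, intervals that overlap.

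The regions fell into 4 sub-classes, whose sizes also depend on the lengths of the lists, 24554 peaks for JUN and 8406 for TEAD4. JUN without TEAD4 held 207 regions (35.8%, 31.8 to 39.8), against 17.7% (16.8 to 18.6) of the regions with YAP and TAZ. YAP alone held 153 regions (26.4%, 22.9 to 30.2), against 4.36% (3.89 to 4.86) of those with TAZ and 6.03% of all regions with YAP. Both TEAD4 and JUN were present at 120 (20.7%, 17.5 to 24.3), against 60.8% (59.6 to 61.9) with TAZ and 57.7% of all regions with YAP. TEAD4 without JUN accounted for 99 regions, 17.1% (14.1 to 20.4), against 17.2% (16.3 to 18.1) of regions with TAZ, intervals that overlap. With lists of equal length the order of the sub-classes was different. JUN without TEAD4 then took 14.7% (12.8 to 16.8) of the 1243 regions without TAZ, against 10.1% (9.38 to 10.9) with TAZ. YAP alone took 46.7% (43.9 to 49.6) without TAZ and 11.7% with TAZ, TEAD4 without JUN 31.9% (29.3 to 34.5) without TAZ and 43.5% (42.3 to 44.7) with TAZ, and both factors 6.68% (5.35 to 8.21) without TAZ and 34.6% (33.5 to 35.8) with TAZ. The reverse class, the 2638 regions with TAZ and no YAP, held TEAD4 at 39.2% (37.3 to 41.1) and JUN at 64.1% (62.2 to 65.9). Regions without TAZ therefore had a TEAD4 share whose interval overlapped that of the reverse class, and a JUN share whose interval lay below it.

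**Figure D2:**
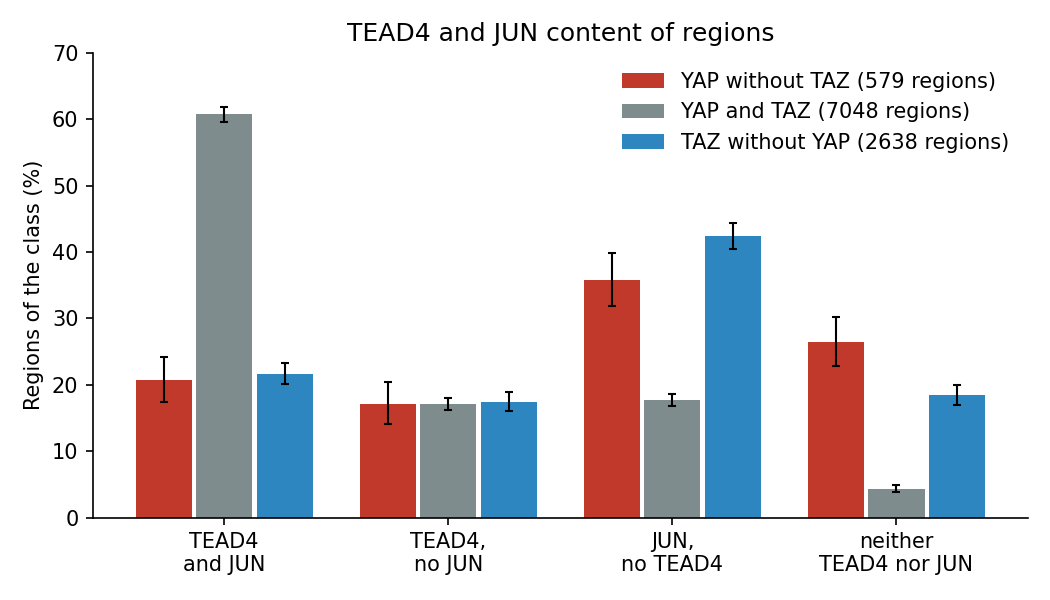
Share of regions (y, %) in each sub-class by TEAD4 and JUN content (x) for the 579 regions with YAP and no TAZ, the 7048 with YAP and TAZ and the 2638 with TAZ and no YAP; whiskers are exact 95% intervals for counting error. TEAD4 with JUN takes 20.7% of the regions without TAZ, 60.8% of those with YAP and TAZ and 21.7% of those without YAP. Regions with neither factor take 26.4% of the regions without TAZ, 4.36% of those with YAP and TAZ and 18.4% of those without YAP.

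TEAD4 presence was higher at more enriched YAP peaks in the whole list, so the shares were also compared at like YAP strength. In the weakest decile of the YAP list by enrichment, TEAD4 was present at 28.9% (21.9 to 36.8) of the 152 YAP peaks without TAZ and at 60.4% (56.4 to 64.3) of the 619 with TAZ. In decile 5 the shares were 43.4% (29.8 to 57.7) of 53 peaks without TAZ and 70.6% (67.1 to 73.9) of 718 with TAZ. For JUN, the shares in the weakest decile were 52.0% (43.7 to 60.1) without TAZ and 78.8% (75.4 to 82.0) with TAZ. In decile 6 TEAD4 was present at 55.6% (38.1 to 72.1) of 36 peaks without TAZ and 77.0% (73.8 to 80.0) of 734 with TAZ. In each of the 6 weakest deciles, which hold all but 14 of the 580 peaks, the share of both factors was lower without TAZ than with TAZ.

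Weighting the deciles of the YAP peaks with TAZ as the peaks without TAZ are spread over them, TEAD4 was present at 37.8% of peaks without TAZ and 64.9% with TAZ, a difference of -27.2 percentage points. For JUN the values were 56.6% without TAZ and 78.2% with TAZ, a difference of -21.6 points. With deciles by p in place of enrichment the TEAD4 difference was smaller, -17.4 points (37.8% without TAZ, 55.2% with TAZ), and in the weakest decile by p TEAD4 was present at 34.9% (28.8 to 41.4) without TAZ and 46.3% (42.0 to 50.6) with TAZ. For JUN the difference by p was -18.6 points.

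**Figure D3:**
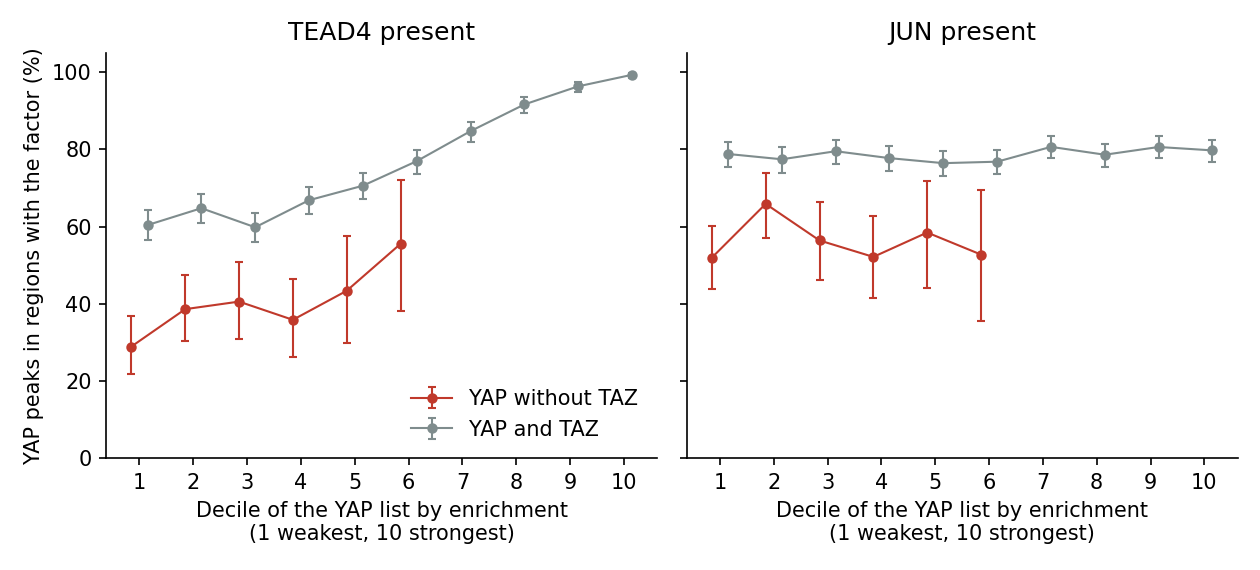
Share of YAP peaks (y, %) in regions that hold TEAD4 (left panel) or JUN (right panel) in each decile of the YAP list by enrichment (x, 1 weakest, 10 strongest), in red without TAZ and in grey with TAZ; whiskers are exact 95% intervals, and deciles with fewer than 20 peaks of a class are not drawn. In the weakest decile TEAD4 is present at 28.9% without TAZ and 60.4% with TAZ, and JUN at 52.0% without TAZ and 78.8% with TAZ.

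Where TEAD4 and JUN were present, their own peaks had a lower median enrichment without TAZ than in regions with YAP and TAZ. The 219 TEAD4 peaks had a median enrichment of 6.33 (6.13 to 6.61) and a maximum of 11.6, against 8.18 (8.08 to 8.29) and a maximum of 33.0 for the 5585 TEAD4 peaks in regions with YAP and TAZ. The median over all TEAD4 peaks was 7.20. The 327 JUN peaks had a median of 12.0 (11.7 to 12.5) without TAZ, against 14.2 (14.0 to 14.4) for the 5555 with TAZ and 11.7 over all JUN peaks. JUN enrichment without TAZ was thus near the middle of its own list, while TEAD4 enrichment was below it. The lists differ in make-up, so this contrast does not single out TEAD4. Regions with neither YAP nor TAZ held 16980 of the 24554 JUN peaks and 1545 of the 8406 TEAD4 peaks. The medians there were 5.86 (5.83 to 5.94) for TEAD4 and 11.01 (10.95 to 11.09) for JUN. Both lay below the medians of the regions with YAP and no TAZ, with intervals that do not overlap. In the reverse class, with TAZ and no YAP, the medians were 6.52 (6.39 to 6.67) for TEAD4 and 12.6 (12.4 to 12.9) for JUN. By enrichment both intervals overlap those of the regions with YAP and no TAZ. By −log10 p the JUN medians were 110.2 (102.3 to 119.4) with YAP and no TAZ and 126.2 (121.6 to 130.7) in the reverse class. These JUN intervals do not overlap. The TEAD4 medians by −log10 p were 37.7 with YAP and no TAZ and 39.5 in the reverse class, with intervals that overlap. Among YAP peaks of the 4 weakest deciles by enrichment, the TEAD4 medians were 6.11 (5.94 to 6.29) without TAZ and 6.58 (6.45 to 6.69) with TAZ, intervals that do not overlap. With the 4 weakest deciles by p they were 6.29 (6.11 to 6.58) without TAZ and 6.58 (6.45 to 6.70) with TAZ, intervals that overlap. The JUN medians were 11.9 (11.4 to 12.4) without TAZ and 13.4 (13.1 to 13.7) with TAZ in the deciles by enrichment, and 12.0 (11.7 to 12.5) without TAZ and 13.5 (13.2 to 13.8) with TAZ in those by p.

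**Figure D4:**
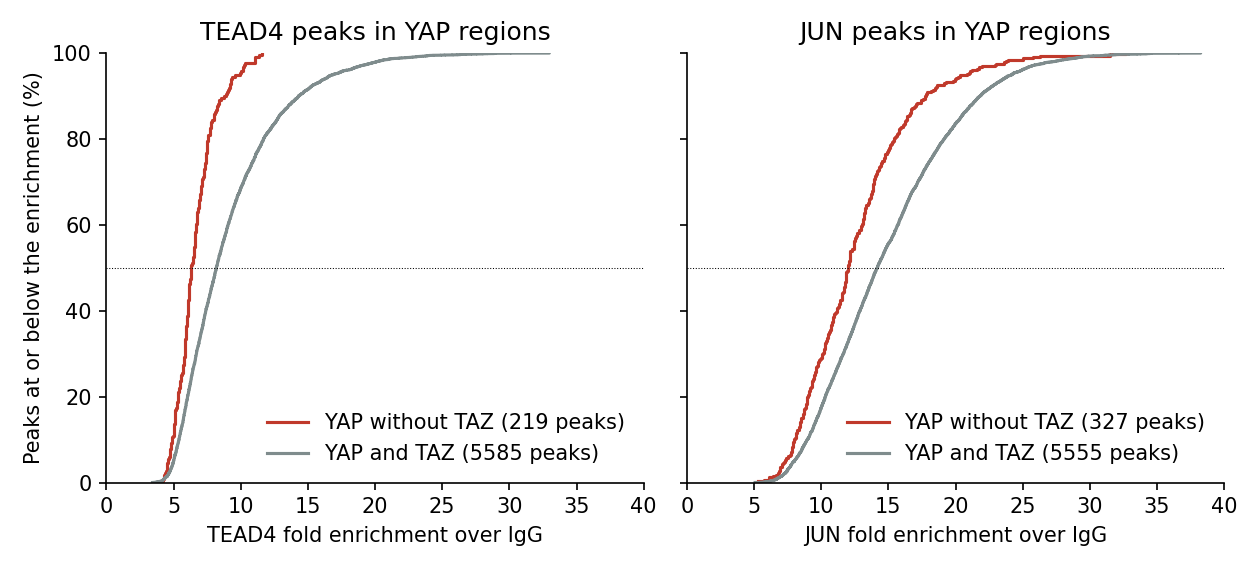
Cumulative share of peaks (y, %) at or below each fold enrichment over IgG (x) for TEAD4 (left panel) and JUN (right panel) peaks in YAP regions, in red without TAZ and in grey with TAZ; the dotted line marks the median. The TEAD4 median is 6.33 without TAZ and 8.18 with TAZ, and the JUN median is 12.0 without TAZ and 14.2 with TAZ.

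The sub-classes differed little in YAP strength. The median YAP enrichment was 5.87 (5.67 to 6.09) with TEAD4 and JUN, 6.10 (5.89 to 6.47) with TEAD4 only, 5.81 (5.67 to 5.96) with JUN only and 5.72 (5.47 to 6.00) with neither, and the interval of each overlapped those of the others. TEAD4 enrichment was 6.13 (5.89 to 6.52) where JUN was present and 6.71 (6.26 to 7.01) where it was absent, intervals that overlap. By −log10 p the TEAD4 medians were 34.0 (31.8 to 36.6) with JUN and 40.2 (38.9 to 43.7) without JUN, intervals that do not overlap. JUN enrichment was 11.9 (10.9 to 12.6) where TEAD4 was present and 12.0 (11.7 to 13.0) where it was absent. The median width of YAP peaks was lowest in the regions of YAP alone, 393 bp (373 to 406). With TEAD4 only it was 418 bp (405 to 452), an interval that overlaps that of YAP alone. The median was 442 bp (420 to 468) with JUN only and 465 bp (429 to 503) where both other factors were present.

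Summits of the factors lay close together in these regions too. The YAP summit was a median of 21 bp (16 to 23) from the TEAD4 summit without TAZ, against 16 bp (15 to 16) with TAZ. Among the 4 weakest deciles of YAP peaks by p, the distance with TAZ was 20 bp (19 to 22). The YAP summit was 33 bp (28 to 38) from the JUN summit without TAZ, 27 bp (26 to 28) with TAZ and 30 bp (28 to 32) with TAZ in those 4 deciles. Where present, TEAD4 had its summit within 100 bp of that of YAP at 97.7% (94.8 to 99.3) of YAP peaks without TAZ, and JUN at 86.3% (82.1 to 89.8). Only peaks of the same region were paired, so the merging itself limits these distances. For YAP peaks with TAZ the shares were 97.3% (96.8 to 97.7) for TEAD4 and 89.1% (88.3 to 89.9) for JUN, intervals that overlap those without TAZ. For both factors the interval of the median distance without TAZ overlapped that of regions with TAZ in the 4 weakest deciles.

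The regions with the highest YAP enrichment show what each sub-class holds. With TEAD4 and no JUN, chr6:86225779-86226283 had the highest YAP enrichment of all, 11.8-fold (rank 1025 of the list by enrichment), with 6.93-fold TEAD4 and a TEAD4 summit 9 bp from that of YAP. The next of this sub-class were chr4:126625930-126626243 (YAP 8.61-fold, TEAD4 7.40-fold) and chr2:225713141-225713636 (YAP 8.06-fold, TEAD4 7.32-fold). Of the regions with TEAD4 and JUN, chr12:47488394-47489059 led with a YAP enrichment of 9.19, TEAD4 of 9.93 and JUN of 12.6, the 3 summits falling within 4 bp, and a TAZ peak lay 491 bp away. It was followed by a region on chromosome 8 (17520227 to 17520778; YAP rank 2318, TEAD4 6.72-fold, JUN 12.1-fold), and by chr3:95008073-95008587 (YAP 8.61-fold, TEAD4 8.56-fold, JUN 11.3-fold). All 6 had a TEAD4 enrichment above the 6.33-fold median of the regions without TAZ, and in each the TEAD4 summit lay within 37 bp of that of YAP.

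Among regions with JUN and no TEAD4, chr4:133101099-133101780 had the highest YAP enrichment, 9.18-fold, with 11.6-fold JUN and no TAZ peak for 1531 kb. The next were chr17:36584774-36585895 (YAP 8.24-fold, JUN 8.65-fold) and chr19:3055180-3055862 (YAP 8.09-fold, JUN 11.8-fold). Of the regions of YAP alone, chr2:185204724-185205131 reached 10.0-fold and lay 256 kb from the nearest TAZ peak, chr12:69809504-69809853 reached 8.47-fold and chrX:83757236-83757729 reached 8.41-fold. One further region of YAP alone, chr6:41909007-41909384, combined a low enrichment with a strong p. Its enrichment, 2.54-fold, was the lowest of the 7709 in the YAP list, while its −log10 p, 165, ranked 253. No other YAP peak of the 579 regions exceeded a −log10 p of 63.8. Only chr3:33839897-33840935, with JUN, held 2 YAP peaks.

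Most regions were not at the edge of a TAZ site. The median distance to the nearest TAZ peak was 52.5 kb (42.2 to 62.0, quartiles 12.8 and 178 kb). A TAZ peak lay within 1 kb of 21 regions (3.63%), within 10 kb of 125 (21.6%) and within 100 kb of 375 (64.8%). The farthest, chr5:25540703-25541145 with TEAD4, was 3413 kb from a TAZ peak, with 5.87-fold YAP and 5.10-fold TEAD4. By sub-class the median distance was 37.4 kb (26.9 to 49.3) with JUN only, 52.9 kb with both, 60.9 kb with neither and 72.7 kb with TEAD4 only. The nearest region with YAP and TAZ was a median of 71.9 kb (59.4 to 88.7) away, against 51.9 kb (49.2 to 54.5) between a region with YAP and TAZ and the next such region. For regions with YAP and TAZ in the 4 weakest deciles by p that distance was 61.0 kb (55.0 to 66.6), whose interval overlaps that of the regions without TAZ. A region with YAP and TAZ lay within 1 kb of 3.45% and within 10 kb of 16.9% of the regions without TAZ. Another such region lay as near to 4.65% and 23.3% of those with YAP and TAZ, and to 3.65% and 21.2% in the 4 weakest deciles.

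The median distance from a region without TAZ to the nearest other such region was 1450 kb, and 14 of the 579 lay within 10 kb of another. No background was made for this distance, so it does not show whether the regions are spread out or grouped. Chromosome 1 held the most, 63. The share of YAP regions without TAZ ranged over the chromosomes between 2.82% on chromosome 16 (5 regions, 0.923 to 6.47) and 11.3% on chromosome 13 (27 regions, 7.61 to 16.1), and these intervals do not overlap. They are the extremes of 23 chromosomes and were picked as such.

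The numbering of the TAZ list was then examined for candidate peaks that were not listed. Listed TAZ peaks reached down to a −log10 p of 22.0. At regions with YAP and TAZ the TAZ peak weakened along with YAP, with a median −log10 p of 158 in the strongest YAP decile by p and 29.6 in the weakest. Numbers in the TAZ peak names ascend along each chromosome and run to 43671 for 9798 listed peaks. If they count all candidate peaks, a skipped number marks a candidate that was not listed. Of the 579 regions, 578 lay between 2 listed TAZ peaks, and in every case at least 1 number was skipped between those peaks. By the limit of 3 counts, the count of 0 allows a share of up to 0.519%. Among 17769 regions with TEAD4 or JUN and neither YAP nor TAZ, no number was skipped at 301, or 1.69% (1.51 to 1.89). Most of these regions, 16230, held JUN and no TEAD4, and they gave 297 of the 301 (1.83%, 1.63 to 2.05).

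The skipped numbers were also counted by interval length, for intervals under 1000 kb. Regions in longer intervals were left out of this split. Where the listed TAZ peaks on either side were under 50 kb apart, 0 of 55 regions with YAP and no TAZ lacked a skipped number. This allows up to 5.45% by the limit of 3 counts, which is lower than an exact limit. Of 1514 regions with neither YAP nor TAZ, 7.93% (6.61 to 9.40) lacked one. In the 3 longer ranges of interval length the limit lay above the share of the regions with neither YAP nor TAZ, so the classes could not be told apart there. The limit was 6.67% (0 of 45) against 3.68% at 50 to 100 kb, 2.0% (0 of 150) against 1.75% at 100 to 300 kb, and 1.46% (0 of 205) against 0.546% at 300 to 1000 kb. At regions with TEAD4 and neither YAP nor TAZ, 4 of 1539 (0.260%, 0.0709 to 0.664) lacked one, an interval that overlaps the range allowed by the count of 0. These regions with TEAD4 were not split by interval length. The 578 regions lay in 539 intervals, 37 of them with 2 or more regions, and in no interval were there fewer skipped numbers than regions. Regions in the same interval share its skipped numbers and are not separate observations. Around a region with YAP and no TAZ a median of 7 numbers was skipped, in an interval of median length 382 kb. At the 17769 regions with neither YAP nor TAZ the median was 6, in 375 kb. In intervals under 50 kb the median was 2 for both classes. Exactly 1 number was skipped at 31 of the 578 regions and at 1043 of the 17769. The numbers therefore do not place a candidate at the region itself. The comparison regions and the interval lengths were chosen after the skipped numbers had been seen.

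**Figure D5:**
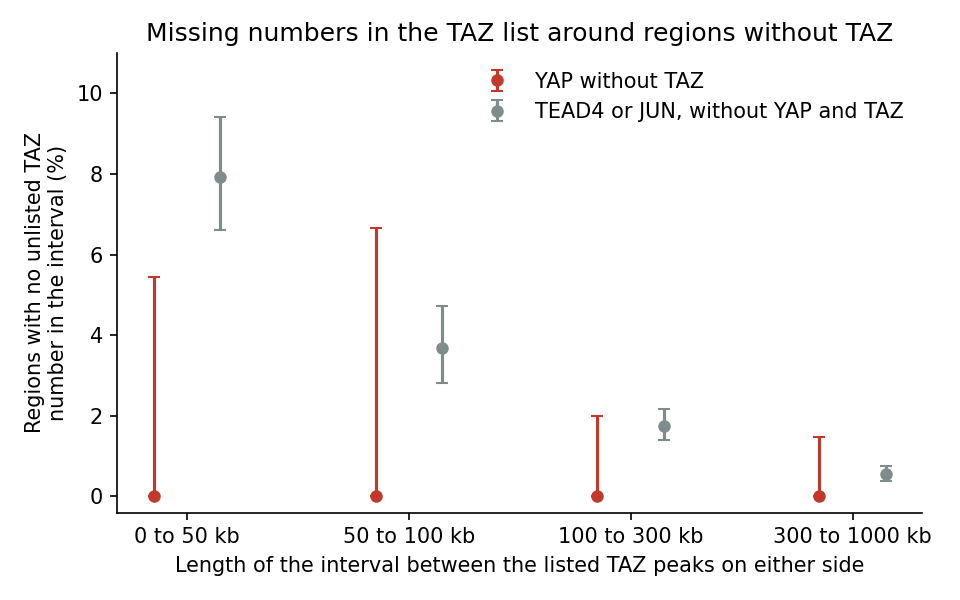
Share of regions (y, %) with no skipped TAZ number between the listed TAZ peaks on either side, by the distance between those peaks (x), in red for regions with YAP and no TAZ and in grey for regions with TEAD4 or JUN and neither YAP nor TAZ; whiskers are exact 95% intervals, or for a count of 0 the limit set by 3 counts. Most grey regions held JUN and no TEAD4. All red points are at 0, and the grey share is 7.93% for intervals under 50 kb, above the red limit of 5.45%. In the longer intervals drawn the grey share is below the red limit. Intervals of 1000 kb or more are not drawn.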

How the data were processed

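Peaks of YAP, TAZ, TEAD4 and JUN were taken from 1 deposited list per factor, and samples were grouped by the factor or IgG in their labels. The submitters' processing notes name MACS2 2.0.10, Bowtie 0.12.7, CASAVA and SAMtools, and build hg19. Per the labels, the authors' peaks were called within the IDR framework against pooled IgG, rabbit for YAP and TAZ and mouse for TEAD4 and JUN; the names of the raw files place YAP, TAZ and rabbit IgG together and the others apart. Any other filter is not stated in the sources used here. Each peak carries the authors' fold enrichment (a ratio to IgG), a deposited −log10 p-value, a summit offset and a deposited integer score; the score and the q-values were not used.

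Peaks were merged at 1 bp overlap and described with Python 3.11.15, pandas 2.3.3 and scipy 1.17.1, after the merging and the skipped-number count had been tested on simulated data. No filter on low values was applied, so all 579 regions are counted. Deciles of the YAP list (10 equal parts) use ranks of enrichment, or of −log10 p where the text says by p, decile 1 being the weakest. The label's independent replicates give no value per replicate here. Members and comparisons were chosen with earlier results of these data known. The regions named are the 3 with the highest YAP enrichment in each sub-class, the farthest from TAZ, the lowest in YAP enrichment, and 3 on either side of the overlap limit; the region with 2 YAP peaks was named after its values were seen. Motifs, gene starts and gene lists were not analysed here. Alternatives were other overlap rules, narrowed peaks, a 1-kb zone free of TAZ, single YAP peaks, shorter lists, a chromosome left out and −log10 p as the measure of strength; reading them for the sub-classes was added after the data were seen.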

Additional observations from a re-analysis of the deposited data

How the results depend on the processing

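Over 9 results and 30 alternative values, 19 lay inside the reported value's own interval (counts: no more than 1.5 times away). List length moved the number most: 288 regions with the stronger 50% of each list, where the YAP list is shortened as well and the share of YAP regions without TAZ, 7.52%, stayed near the reported 7.59%, and 1243 (16.3%) with lists of equal length, which shortens the TAZ, TEAD4 and JUN lists. The JUN share was 36.9% with a reciprocal overlap of 50%, 50.2% with summits within 200 bp, 49.8% with peaks narrowed to 200 bp, 41.7% with the stronger 50% and 21.4% with lists of equal length; beside these, regions or peaks with YAP and TAZ had 63.6%, 73.7%, 74.0%, 64.1% and 44.8%. The TEAD4 share was 42.5% with the reciprocal overlap, against 75.6% with TAZ. With −log10 p in place of enrichment, the TEAD4 difference at like YAP strength was -17.4 points, and the ratio of medians, without TAZ over with TAZ, was 0.626 for TEAD4 and 0.704 for JUN, against 0.773 and 0.847 by enrichment. Among the sub-classes, read under these settings after the data were seen, YAP alone outnumbered JUN without TEAD4 with the reciprocal overlap (35.8% and 21.7%), the stronger 50% (34.0% and 29.9%) and lists of equal length (46.7% and 14.7%). In all 8 settings both shares were lower without TAZ than with TAZ. Replicates could not be left out in turn, and motifs and gene starts were not run. No paired analysis was possible because each list combines both replicates. Read depth is unknown here, so what it limits cannot be given.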

Other observations

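Skipped numbers in the YAP list were counted at regions with TAZ and no YAP. Of 2602 such regions lying between 2 listed YAP peaks, 7 (0.269%, 0.108 to 0.554) had no number skipped between those peaks. Skipped numbers were also looked for where TEAD4 or JUN was absent. In the TEAD4 list no number was skipped at 7 of 357 regions with YAP and neither TAZ nor TEAD4 (1.96%, 0.792 to 4.00), against 7 of 1545 with YAP and TAZ and no TEAD4 (0.453%, 0.182 to 0.931). In the JUN list no number was skipped at 3 of 251 regions without TAZ (1.20%, 0.247 to 3.45) and at 20 of 1510 with TAZ (1.32%, 0.811 to 2.04).

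The YAP values come in steps. Of the 580 YAP peaks without TAZ, 461 (79.5%) had a fold enrichment and a −log10 p that were both identical to those of another YAP peak, against 62.3% of the 7129 with TAZ. In the 4 weakest deciles by p the shares were 80.3% without TAZ and 79.3% with TAZ, so ranks within these deciles rest on coarse values.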
